A study of Mus musculus with 10 samples.

Results

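The 9 genes described here belong to the major histocompatibility complex (MHC) class I pathway and to the interferon response, and were chosen by symbol: B2m, H2-K1, H2-D1, Tap1, Tap2, Stat2, Irf9, Irf1 and Ifit1. All 9 were found among the 34254 features of the deposited matrices. The data are single-cell RNA counts of retinal ganglion cells, the neurons whose axons form the optic nerve, in 6 uninjured and 4 injured libraries made with the 10x Genomics system. The mice were wild-type 129S1/SvImJ, 12 weeks old and, by the labels, of both sexes, and the injured mice had undergone optic nerve crush 2 weeks before. Each batch pooled 10 retinas and loaded 6000 cells, which had been Thy1-immunopanned after depletion, by the labels, of macrophages and, by the article, also of amacrine cells. The labels and the article name different versions of the kit and different sequencers. The labels name no vector, while the article describes a viral vector for the reporter mCherry, whose UMIs were found in the injured libraries.

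Class I molecules carry peptides from inside the cell to its surface, where CD8 T cells and natural killer cells read them. Each is a heavy chain (in mice H2-K1 or H2-D1) bound to beta-2-microglobulin, and it is loaded with peptides that the transporter of Tap1 and Tap2 brings into the endoplasmic reticulum. Interferons raise these genes through a complex that holds Stat2 and Irf9 and binds the interferon-stimulated response element (ISRE), and through Irf1, while neurons are known for low class I levels that rise with injury or interferon.

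The libraries differed in ways that the comparison carries along. Uninjured libraries 1 to 6 held 98, 103, 363, 651, 267 and 201 cells and injured libraries 1 to 4 held 338, 273, 527 and 471. Total counts of unique molecular identifiers (UMIs, 1 per captured RNA molecule) ran from 2839693 to 23180399 in the uninjured and from 4698799 to 8860536 in the injured libraries. The median cell held 20437 to 34337 UMIs in uninjured libraries and 11257 to 14695 in injured ones, so the injured cells were shallower. Injured 3 and 4 shared 421 cell barcodes, with a median Pearson r of 0.830 between profiles of the same barcode against 0.634 between different barcodes. They were therefore averaged into 1 sample, called injured 3/4, which left 6 uninjured and 3 injured samples and 1188 distinct injured cells. Other libraries were alike in pairs: the median squared difference of a gene over counting noise was 1.82 between uninjured 1 and 2, 1.87 between 3 and 4, 1.47 between 5 and 6 and 2.28 between injured 1 and 2, against 3.86 to 21.2 for the other uninjured pairs. The exact tests and the edgeR tests of injury below treat all 9 samples as independent, which such pairs may not be.

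The sex of the cells went against the labels in most libraries. Xist, the RNA of the inactive X chromosome in female cells, had a UMI in 210 of 338 cells of injured 1 and 184 of 273 cells of injured 2, but in 3 of 527 cells of injured 3 and 1 of 471 of injured 4. In the uninjured libraries together 5 cells had it, and UMIs of 4 Y-linked genes without Xist were found in 93.5% to 96.9% of cells. Injured 1 and 2 thus held cells of both sexes, and the other 8 libraries almost only male cells. UMIs of mCherry, a fluorescent reporter, were in 0 uninjured cells, in 27 and 41 cells of injured 1 and 2, and in 453 and 397 cells of injured 3 and 4. Depth and reporter UMIs thus differed between uninjured and injured libraries, and sex between injured 1 and 2 and all others. Values given below for thinned cells, or for cells without Xist or mCherry UMIs, describe those cells. Cells without an mCherry UMI came from the same injured libraries as cells with one, so injury and the reporter cannot be told apart. The part of depth, sex and the reporter in the levels below was not tested.

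The stretch before the start site is shown for the 6 members in which a motif of interferon or NF-kB signalling was found. The RefSeq promoter table of build GRCm38.p6 (250 bases before to 50 after the start) had entries for 8 of the 9 members, with none for Tap2, and each was placed on GRCm39 by exact match. Capitals mark matches on either strand to the ISRE (GAAANNGAAA), to the gamma-activated site (GAS, TTCNNNGAA) or to the NF-kB motif, where matches to NF-kB on opposite strands can overlap. Of all 32851 promoters in the table, 3.44% held the ISRE, 8.30% the GAS and 8.46% the NF-kB motif. The reference is not of strain 129S1/SvImJ, and a match describes letters, not a site in use.
B2m, GRCm39 chr2:121977918-121978217, plus strand: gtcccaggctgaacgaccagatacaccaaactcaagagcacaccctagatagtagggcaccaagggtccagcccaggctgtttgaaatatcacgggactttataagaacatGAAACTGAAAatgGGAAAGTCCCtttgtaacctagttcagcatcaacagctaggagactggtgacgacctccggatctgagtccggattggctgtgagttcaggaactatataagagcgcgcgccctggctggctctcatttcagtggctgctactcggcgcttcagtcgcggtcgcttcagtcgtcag
H2-K1, GRCm39 chr17:34219272-34219571, minus strand: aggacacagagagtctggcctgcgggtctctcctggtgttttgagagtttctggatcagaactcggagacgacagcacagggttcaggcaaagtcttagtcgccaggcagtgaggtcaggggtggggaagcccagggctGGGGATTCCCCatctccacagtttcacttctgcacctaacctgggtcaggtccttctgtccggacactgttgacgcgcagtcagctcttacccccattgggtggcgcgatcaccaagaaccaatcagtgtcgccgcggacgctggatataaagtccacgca
H2-D1, GRCm39 chr17:35481820-35482119, plus strand: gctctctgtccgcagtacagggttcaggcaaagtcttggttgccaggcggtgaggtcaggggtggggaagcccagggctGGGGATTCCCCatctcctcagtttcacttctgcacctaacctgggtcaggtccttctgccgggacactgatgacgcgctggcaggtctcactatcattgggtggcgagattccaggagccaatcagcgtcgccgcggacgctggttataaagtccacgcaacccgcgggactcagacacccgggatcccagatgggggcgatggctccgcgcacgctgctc
Stat2, GRCm39 chr10:128106117-128106416, plus strand: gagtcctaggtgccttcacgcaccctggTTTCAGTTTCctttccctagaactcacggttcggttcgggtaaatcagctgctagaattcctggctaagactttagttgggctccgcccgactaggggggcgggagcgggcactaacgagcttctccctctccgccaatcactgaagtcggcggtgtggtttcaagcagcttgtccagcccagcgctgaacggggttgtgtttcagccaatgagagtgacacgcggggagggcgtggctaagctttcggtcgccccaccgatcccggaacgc
Irf1, GRCm39 chr11:53660591-53660890, plus strand: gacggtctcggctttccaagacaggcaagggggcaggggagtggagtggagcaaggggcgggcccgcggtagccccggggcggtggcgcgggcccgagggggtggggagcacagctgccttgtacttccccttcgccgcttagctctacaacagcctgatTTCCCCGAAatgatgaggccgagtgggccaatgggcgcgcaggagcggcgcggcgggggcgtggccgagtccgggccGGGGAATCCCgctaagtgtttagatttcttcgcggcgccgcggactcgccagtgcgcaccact
Ifit1, GRCm39 chr19:34618039-34618338, plus strand: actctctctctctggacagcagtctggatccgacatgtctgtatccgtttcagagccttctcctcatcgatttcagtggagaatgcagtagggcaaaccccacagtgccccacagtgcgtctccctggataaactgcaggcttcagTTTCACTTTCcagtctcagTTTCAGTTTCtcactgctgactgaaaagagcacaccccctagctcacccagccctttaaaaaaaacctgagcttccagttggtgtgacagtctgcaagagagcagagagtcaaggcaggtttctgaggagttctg
An exact match to the ISRE letters was in 3 of the 8 members with an entry: B2m, Stat2 and Ifit1, the last with 2 matches. Sites that depart from the letters of a motif were not searched for, so a window without a match may still hold one. The NF-kB motif was in B2m, H2-K1, H2-D1 and Irf1, in H2-K1 and H2-D1 within the same stretch of shared sequence. Irf1 was the 1 member with the GAS, and the windows of Tap1 and Irf9 held none of the 3 motifs. H2-K1, Irf1 and Irf9 have 2 entries each, of which the first is shown for H2-K1 and Irf1, and the second window of Irf1 held none of the motifs. Among 48 other interferon targets listed, 39 had an entry and 19 of these held the ISRE.

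The class I light and heavy chains rose after injury. B2m (chr2:121977957-121983594 on GRCm39, plus strand) encodes beta-2-microglobulin, the light chain. In CPM, the UMIs of a gene scaled to a common library total with edgeR's TMM factors, it stood at 5.04 in the lowest uninjured library, 6.26 at the median and 8.69 in the highest, against 220 in injured 1, 253 in injured 2 and 240 in injured 3/4. The injured samples lay close together and far above all 6 uninjured libraries, with no overlap. The mean went from 6.58 ± 1.58 (SD, n = 6) to 238 ± 16.5 (SD, n = 3), a log2 fold change of 5.21 ± 0.17 (SE), or 37.1-fold (edgeR, adjusted p = 2.46e-09). The exact two-sided permutation test over samples gave p = 0.0238, the smallest that 6 against 3 samples allow. B2m overlaps Patl2 on the other strand, and the strand on which reads were counted is not stated, so overlapping RNA cannot be told apart here or for the other members that overlap a gene, all but Stat2.

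H2-K1 (chr17:34214987-34219321, minus strand) encodes a classical heavy chain. It was at 4.72, 6.77 and 8.38 CPM in the lowest, median and highest uninjured library, and at 234, 242 and 284 CPM in injured 1, 2 and 3/4. As for B2m, every injured sample was above every uninjured library by a wide margin. The means were 6.78 ± 1.49 CPM (SD, n = 6) and 253 ± 26.5 CPM (SD, n = 3), with a log2 fold change of 5.18 ± 0.17 and an edgeR adjusted p of 2.39e-09.

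H2-D1 (chr17:35481691-35486475, plus strand), the other classical heavy chain of the set, differed in that it was already well counted without injury. Its uninjured CPM was 69.7 at the lowest, 91.3 at the median and 126 at the highest, against 244 in injured 1, 288 in injured 2 and 260 in injured 3/4. The groups again did not overlap, but the gap was small beside those of B2m and H2-K1. This came to 2.77-fold, or log2 1.47 ± 0.20 (edgeR, adjusted p = 9.94e-05). Class I heavy chains share long stretches of sequence with each other and with the H2-Q genes, so how reads were divided among them is uncertain. Each of the pair also overlaps a noncoding RNA on the other strand, Gm53999 at H2-K1 and 5430410E06Rik at H2-D1.

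**Figure D1:**
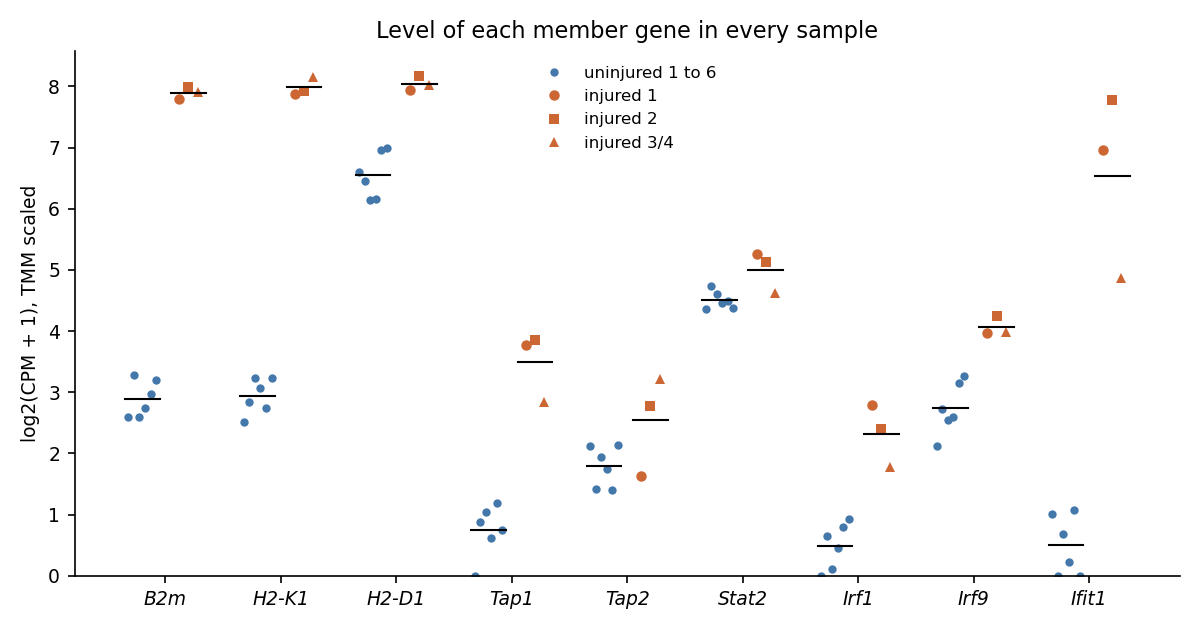
The vertical axis is log2 of CPM plus 1 and the horizontal axis names the 9 member genes; blue points are uninjured libraries, orange points injured samples and lines group means. Injured samples stand above all uninjured libraries for 7 genes, while for Tap2 and Stat2 1 injured sample lies within the uninjured values.

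The 2 chains of the peptide transporter were counted far less, and differed from each other. Tap1 (chr17:34405996-34416199, plus strand) was at 0 in the lowest uninjured library, 0.760 CPM at the median and 1.29 at the highest, against 12.6, 13.5 and 6.18 CPM in injured 1, 2 and 3/4. No uninjured library reached the lowest injured sample, which was injured 3/4. From 40 uninjured UMIs and 178 injured UMIs (injured 3 and 4 averaged), the log2 fold change was 3.77 ± 0.41 (edgeR, adjusted p = 1.97e-05). Tap1 overlaps the immunoproteasome gene Psmb9 on the other strand.

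Tap2 (chr17:34422501-34435829, plus strand) was at 1.65, 2.60 and 3.40 CPM in the lowest, median and highest uninjured library, and at 2.10, 5.84 and 8.33 CPM in injured 1, 2 and 3/4. Injured 1 lay inside the uninjured values, and injured 2 and 3/4 above them, so the groups overlapped. The log2 fold change was 1.11 ± 0.39 with an edgeR adjusted p of 0.0358, and the exact permutation test gave p = 0.119. The call was lost without uninjured 2 (log2 1.06, edgeR adjusted p = 0.0577), uninjured 4 (1.09, 0.0580), uninjured 5 (1.02, 0.0567), injured 2 (1.07, 0.0954) or injured 3/4 (0.64, 0.286), and over its alternatives the adjusted p ran from 0.00468 to 0.286.

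The factors that carry the interferon signal to DNA changed by unequal amounts. Stat2 (chr10:128106352-128128735, plus strand), the subunit that activates transcription in the complex with Irf9, was at 19.5, 21.3 and 25.5 CPM in the lowest, median and highest uninjured library. Its injured values were 37.5, 33.9 and 23.6 CPM in injured 1, 2 and 3/4. Injured 1 and 2 were above all uninjured libraries and injured 3/4 was among them. The log2 fold change was 0.53 ± 0.16 (edgeR, adjusted p = 0.0164) and the exact permutation test gave p = 0.0476. The call was lost without injured 1 (log2 0.40, edgeR adjusted p = 0.107) or injured 2 (0.49, 0.0670). With cells thinned to 8000 UMIs and shallower cells left out, the change was 0.00 ± 0.18 (edgeR, adjusted p = 0.996), the highest over alternatives that began at 0.000604.

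Irf9 (chr14:55841028-55847812, plus strand), the DNA-binding subunit, stood at 3.37, 5.33 and 8.61 CPM in the lowest, median and highest uninjured library and at 14.7, 18.0 and 14.8 CPM in injured 1, 2 and 3/4. All 3 injured samples were alike and above every uninjured library. Its log2 fold change was 1.42 ± 0.24 (edgeR, adjusted p = 0.000537). Irf9 overlaps Rnf31 on the same strand, so its reads may include those of that gene. Irf1 (chr11:53660812-53669200, plus strand), a transcription factor that interferon gamma induces and that acts on class I genes, was at 0, 0.465 and 0.906 CPM in the lowest, median and highest uninjured library. In injured 1, 2 and 3/4 it was at 5.95, 4.27 and 2.42 CPM, without overlap. The log2 fold change was 3.37 ± 0.55 from only 20 uninjured and 71 injured UMIs, averaged in the same way (edgeR, adjusted p = 0.000397), and ran from 3.01 to 4.55 over its alternatives.

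Ifit1 (chr19:34618271-34632174, plus strand), a direct interferon target that binds foreign RNA, had the largest fold change of the 9. It was at 0, 0.383 and 1.10 CPM in the lowest, median and highest uninjured library, and at 123, 218 and 28.3 CPM in injured 1, 2 and 3/4. The injured samples were apart from all uninjured libraries, and unlike those of B2m or H2-K1 they were far apart from each other. From 21 uninjured and 1888 injured UMIs, averaged as above, the log2 fold change was 8.18 ± 0.69 (edgeR, adjusted p = 2.72e-06). Without injured 2, its highest sample, the log2 fold change was 7.48 (edgeR adjusted p = 1.42e-05), a ratio smaller by more than 1.5 times. Ifit1 overlaps Ifit1bl2 on the other strand and has related copies, so its share of their reads is uncertain.

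In edgeR's test over 14234 genes, 9 of 9 members passed an adjusted p of 0.05, all higher after injury, where 44% of all tested genes passed in either direction and 21.3% were higher. In 7 of 9 members every injured sample was above every uninjured library, which held for 21.9% of all tested genes. The members' median log2 fold change was 3.37, against -0.03 over all tested genes. In the uninjured libraries Tap1, Irf1 and Ifit1 were so low that they passed the filter on low counts through their injured levels, so these counts are a description. Every injured library held mCherry UMIs and shallower cells, so leaving out 1 sample did not remove these differences. With 1 injured sample left out, B2m changed by a similar amount. Its log2 fold change was 5.27 without injured 1, 5.17 without injured 2 and 5.22 without injured 3/4, and 5.31 in cells with no Xist UMI. With the similar libraries summed into 1 sample each, it was 5.17 for B2m, 5.25 for H2-K1 and 1.45 for H2-D1, and 8 of 9 members passed, all but Stat2, where 2035 of 15454 tested genes were higher. In cells of injured 1 and 2 with no mCherry UMI, a choice made after the data were seen, the log2 fold change was 5.26 for B2m, 5.14 for H2-K1, 1.55 for H2-D1 and 8.83 for Ifit1.

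More cells carried B2m and H2-K1 after injury, at equal depth as well as at the deposited depth. Cells were thinned to 8000 UMIs, and 29 uninjured and 233 injured cells below that depth, counted over all libraries, were left out. Of the cells kept, 4.96% ± 1.38 in uninjured (SD over 6 libraries) and 34.0% ± 8.50 in injured samples (SD over 3 samples) had a B2m UMI. For H2-K1 the shares were 4.42% ± 0.440 and 37.8% ± 13.0. Both differences gave p = 0.0238 in the exact permutation test. H2-D1 was in 51.1% ± 7.90 of uninjured and 56.2% ± 5.49 of injured cells, an overlap between groups (exact permutation p = 0.333), so its higher injured level came with more UMIs per positive cell. At the deposited depth the shares of H2-D1 were 83.5% and 67.9%, the reverse order, with shallower injured cells.

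The smaller transcripts followed in part. Tap1 went from 0.818% to 3.53% of thinned cells, Irf1 from 0.267% to 2.16% and Irf9 from 3.81% to 9.45%, each with an exact permutation p of 0.0238. Ifit1 went from 0.138% ± 0.169 to 9.98% ± 3.62 (exact permutation p = 0.0238), so it was high in a minority of injured cells. Tap2 was in 1.66% and 3.77% (exact permutation p = 0.214) and Stat2 in 18.3% and 14.7% (exact permutation p = 0.167), with groups that overlapped. The authors selected ganglion cells, and a group of another cell type was not analysed here, so markers of other cells were read in the same cells. In thinned uninjured and injured cells the microglial gene C1qa was in 0.109% and 0%, the endothelial gene Cldn5 in none, and the Muller glia gene Rlbp1 in 0.544% and 7.52%. The uninjured shares of Tap1, Irf1 and Ifit1 were near these levels and are not read as expression. The amacrine marker Gad1, named after its values were seen, was in 8.69% ± 4.14 of uninjured and 6.35% ± 2.72 of injured thinned cells. Its uninjured mean was above those of B2m, H2-K1 and Irf9, as was its share in uninjured 1 to 4. In uninjured 6 its 3.0% was below B2m (5.0%), H2-K1 (4.0%) and Irf9 (3.5%). In uninjured 5 its 5.53% was below B2m (5.93%) and Irf9 (6.72%) and above H2-K1 (4.74%). Whether the low uninjured shares of these genes came from the cells or from free RNA was not tested. After injury the shares of Tap1, Tap2 and Irf1 were below that of Rlbp1, and whether its rise came from free RNA was not tested.

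**Figure D2:**
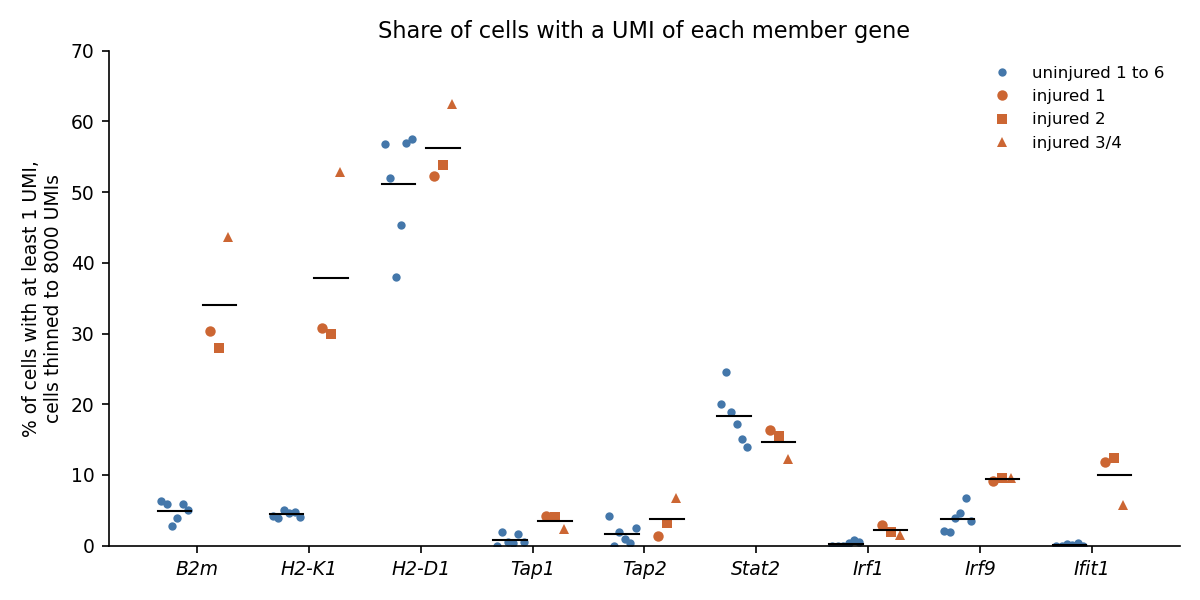
The vertical axis is the percentage of cells with at least 1 UMI after cells were thinned to 8000 UMIs, shallower cells left out, and the horizontal axis names the genes; blue points are uninjured libraries, orange points injured samples and lines group means. B2m and H2-K1 rise from under 7% in every uninjured library to over 27% in every injured sample, while H2-D1 and Stat2 overlap.

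The counts were uneven between cells. The 10% of cells with most B2m held 67.7% to 82.4% of its UMIs in the injured libraries, with up to 154 in 1 cell, and 75.0% to 100% in the uninjured libraries, where few UMIs were counted. With so few UMIs the uninjured shares say nothing on how evenly B2m was spread before injury. For H2-D1 such cells held 24.8% to 30.5% in uninjured and 54.2% to 66.5% in injured libraries, so a transcript that was evenly spread became uneven. Of 3 ganglion cell markers read as references, Rbpms was similar, with 19.7% to 34.0% in uninjured and 26.3% to 30.2% in injured libraries. Tubb3 (21.5% to 28.4% and 42.0% to 48.7%) and Thy1 (19.7% to 24.5% and 32.5% to 36.4%) also became more uneven, so this was not particular to H2-D1.

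Several pairs of members met in the same injured cells more often than the product of their shares. Among 1017 thinned cells of injured 1 to 3, 360 had a B2m UMI, 403 an H2-K1 UMI and 271 both, where the product of the shares within each library comes to 149.7 cells. Of 91 cells with Ifit1, 84 had B2m against a product of 29.86, and of 32 with Tap1, 29 had B2m against 10.59. With Isg15, a ubiquitin-like interferon target, 29 of its 30 positive cells also had Ifit1. In 1654 thinned uninjured cells the B2m and H2-K1 UMIs met in 4 cells, near the product of 3.26. These counts describe cells that share libraries, and no test was made on them.

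Within injured 1 and injured 2, the member levels differed between cells of the 2 sexes, in opposite directions. In injured 1, B2m was at 442 CPM of summed UMIs in 128 cells without an Xist UMI and at 62.6 CPM in 210 cells with Xist. In injured 2 it was the other way round, with 43.8 CPM in 89 cells without and 317 CPM in 184 cells with an Xist UMI. The high cells were thus those without Xist in 1 library and those with it in the other. H2-K1 followed, at 426 CPM without and 95.4 with Xist in injured 1, and at 56.6 without and 298 with it in injured 2. H2-D1 was at 409 and 122 CPM in injured 1, and at 129 and 329 CPM in injured 2, in the same order.

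Ifit1 was split in the same way. It was at 257 CPM without and 29.2 CPM with Xist in injured 1, and at 0.755 CPM (1 UMI) without and 288 CPM with Xist in injured 2. Stat2 was at 63.3 and 18.4 CPM in injured 1, and at 9.81 and 40.9 CPM in injured 2. Isg15 had 0 UMIs in the 89 cells of injured 2 without Xist and stood at 74.1 CPM in the others. Irf1 was at 13.7 CPM without and 0.556 with Xist in injured 1, and at 2.26 and 4.74 CPM in injured 2, from few UMIs. Even the low side of each library had more B2m than any uninjured library. For Stat2 (18.4 and 9.81 CPM) and Tap2 (0.834 and 1.51) neither low side was above all uninjured libraries, nor were those of Irf1 in injured 1 or of Ifit1 in injured 2, all as CPM without TMM factors.

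The deeper side was in both libraries the side with the higher members, with median cells of 14020.5 UMIs with and 16098.5 without Xist in injured 1, and of 15014.5 and 13596 in injured 2. The ganglion cell marker Rbpms was at 289 CPM with and 271 without Xist in injured 1, and at 241 and 339 in injured 2. Tubb3, a neuronal tubulin, was at 719 and 1229 CPM in injured 1 and at 1181 and 723 in injured 2, higher on the side with the higher members in both. The split was looked at after the data were seen, each library is a single pool, and no test was made. Each pool held retinas of several mice, and differences between sexes and differences between the animals that gave the cells cannot be told apart.

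**Figure D3:**
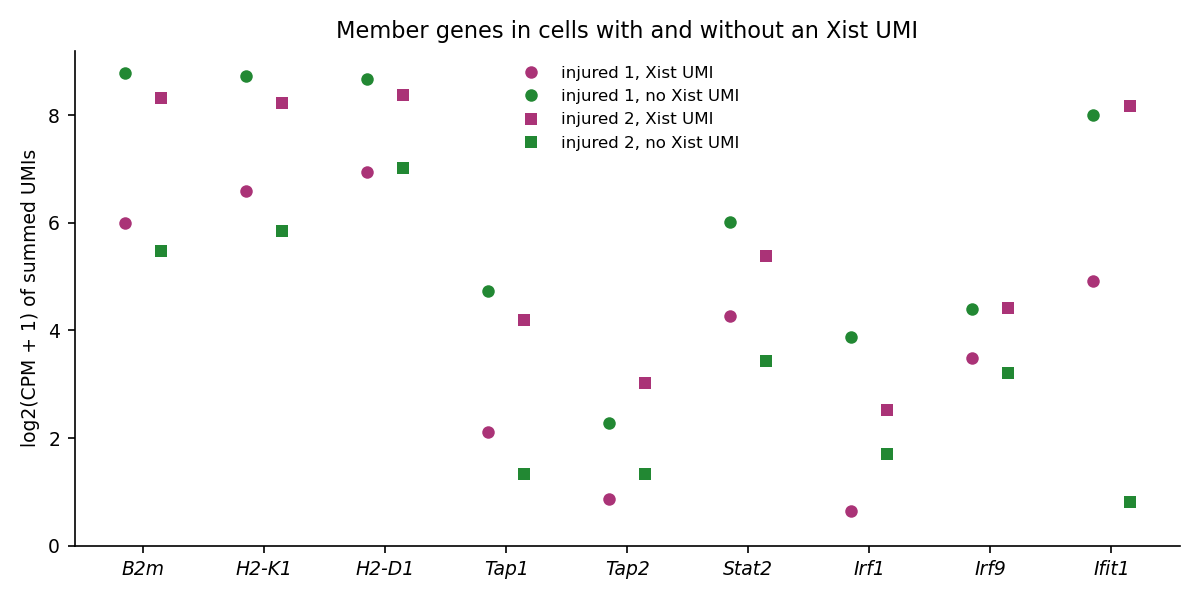
The vertical axis is log2 of CPM plus 1 of UMIs summed over cells and the horizontal axis names the genes; circles are injured 1, squares injured 2, purple cells with an Xist UMI and green cells without Xist. In injured 1 the green circles lie above the purple, and in injured 2 the purple squares above the green, for all 9 genes.

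Whether the reporter went with these genes was asked by comparing mCherry-positive with mCherry-negative cells inside injured 1, 2 and 3. For the class I chains the 2 kinds of cells differed in no common direction. B2m was at 257 CPM in the positive and 211 in the negative cells of injured 1, at 121 and 267 in injured 2, and at 238 and 141 in injured 3. It was thus higher in positive cells in 2 libraries and lower in 1, with a log2 difference of -0.02 ± 0.45 (edgeR, adjusted p = 0.995). H2-K1 gave -0.06 ± 0.41 (higher in 2 of 3 libraries) and H2-D1 0.15 ± 0.47 (higher in 1 of 3).

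For 5 members the values lay lower in positive cells in each library, but none passed the threshold, and of all tested genes 13.8% lay lower in each library. Ifit1 was at 40.2 CPM in positive and 129 in negative cells of injured 1, at 15.9 and 246 in injured 2, and at 26.6 and 31.2 in injured 3. It was lower in positive cells in 3 of 3 libraries, with the smallest gap in injured 3. The log2 difference was -1.84 ± 0.60 (edgeR, adjusted p = 0.863), from 22 and 11 UMIs in the positive cells of injured 1 and 2. Only without the filter on low counts did Ifit1 pass (-1.81, edgeR adjusted p = 0.0103), and over its alternatives the adjusted p ran up to 0.985. Its log2 difference was -0.94 without injured 2 and -2.79 without injured 3, and neither passed. Stat2, at -0.92 ± 0.34 (edgeR, adjusted p = 0.863), and Irf9, Irf1 and Tap2 were also lower in positive cells in 3 of 3 libraries.

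Over 11631 genes tested with the library as a term, 0 members and 0% of all genes passed an adjusted p of 0.05 in edgeR, where 327 genes had an unadjusted p under 0.05. DESeq2 gave 1 gene past the threshold and 163 at an unadjusted p under 0.05. The counts moved with the library left out: 6 genes passed without injured 1 (2 higher, 4 lower), 4 without injured 2 (all lower) and 21 without injured 3 (1 higher, 20 lower). Without injured 2 the values of B2m (0.52), H2-K1 (0.33) and Tap1 (0.20) changed sign, and without injured 3 so did that of H2-D1 (-0.42). The members' median log2 difference was -0.53, against 0.00 over all tested genes, and that of 31 tested interferon targets -0.90. Positive and negative cells also differed in depth and sex: the median cell held 18343 and 14544 UMIs in injured 1, 16702 and 14584.5 in injured 2 and 14920 and 11788 in injured 3. In injured 2, 80.5% and 65.1% of them had an Xist UMI, and the part of either in these values was not tested.

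**Figure D4:**
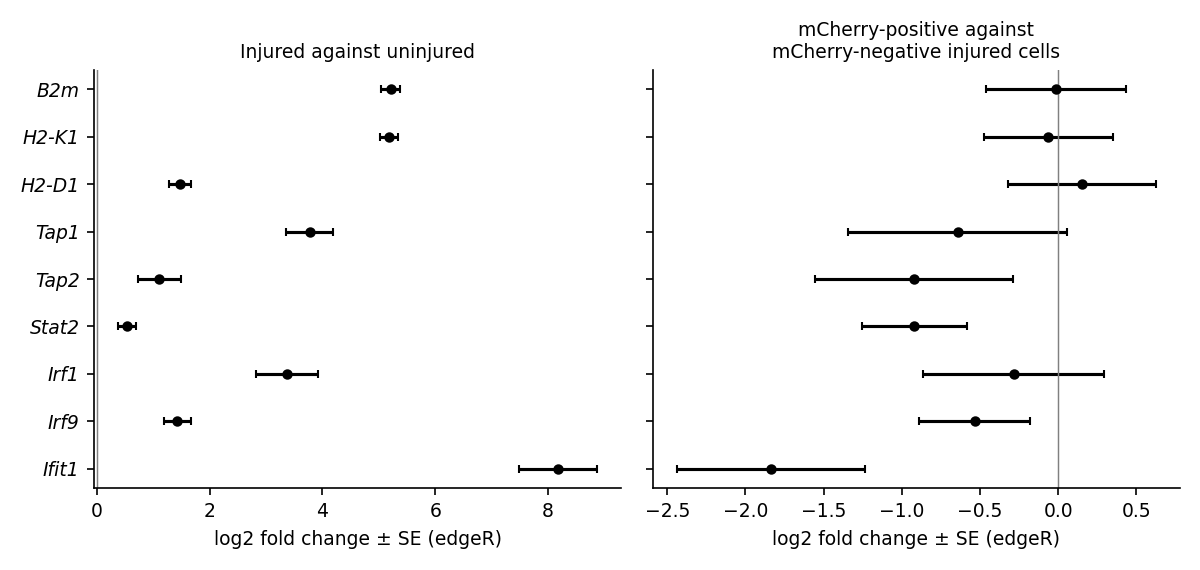
The horizontal axes are log2 fold changes from edgeR, left for injured against uninjured samples and right for mCherry-positive against mCherry-negative cells of injured 1 to 3, with bars of 1 standard error; the vertical axis names the genes. On the left all 9 genes are above 0, and on the right Ifit1 lies lowest at -1.84 with B2m, H2-K1 and H2-D1 near 0.

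The other genes of the pathway were read from lists of the same kind. Of 18 other class I heavy chains 8 were tested and all 8 rose, with a median log2 fold change of 3.58, where 21.3% of all tested genes were higher. Genes such as H2-Q6 passed the filter on low counts through their injured level, and genes low in both groups were not tested, so this count follows in part from the filter. H2-Q6 went from 0.290 ± 0.250 to 43.8 ± 20.9 CPM (log2 7.05), H2-Q7 from 3.81 ± 1.95 to 55.3 ± 10.9 (3.79), H2-T23 from 2.98 ± 1.90 to 32.4 ± 3.76 (3.36) and Cd1d1, which presents lipids, from 2.75 ± 1.33 to 14.7 ± 4.37 (2.57). The 12 genes of peptide loading and the immunoproteasome split: 7 rose, 2 fell and 3 did not pass, with a median of 0.49. Psmb8, a catalytic subunit of the immunoproteasome, rose (log2 4.15), as did the loading factors Tapbp (0.83) and Pdia3 (0.81), while the chaperone Canx fell from 306 ± 11.5 to 169 ± 26.6 CPM (-0.85). Nlrc5, the activator of class I transcription, named after its values were seen, rose from 0.0843 ± 0.107 to 10.8 ± 2.19 CPM (log2 6.12). It was so low without injury that it passed the filter on low counts through its injured level, so the count of this list too follows in part from the filter.

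Ligands were not seen. None of the 9 interferon ligand genes listed had a UMI in any library, which allows up to 0.0572 CPM over the uninjured and 0.165 CPM over the injured samples. Of 14 receptor and JAK-STAT genes 12 were tested, of which 5 rose, 1 fell and 6 did not pass (median 0.36), a share past the threshold near the 44% of all tested genes. The negative regulator Socs1 rose (log2 2.76), as did the receptor chain Ifnar2 (0.52), while the kinase Tyk2 fell (-0.81). Among 10 other genes of the interferon regulatory factor list 6 were tested and 3 rose: Irf7 (log2 5.82), which amplifies interferon production, Irf2 (0.71) and Irf2bpl (0.50). Irf3 (-0.07), Irf2bp1 (0.33) and Irf2bp2 (0.41) did not pass. The sensors of viral RNA Rigi (log2 2.91) and Ifih1 (4.15) rose, and the kinase Tbk1 (0.18) did not pass, of 12 sensor genes with 3 tested. Irf7 and Ifih1 were so low without injury that they passed the filter through their injured level, so these counts too follow in part from the filter.

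Of 48 other interferon targets 34 were tested, of which 31 rose, 1 fell and 2 did not pass, with a median log2 fold change of 3.98, where 21.3% of all tested genes were higher. As above, targets such as Ifi44, Iigp1, Rsad2 and Isg15 passed the filter through their injured level, so the count and the median follow in part from the filter. Their summed level was 118 to 140 CPM in the uninjured libraries, and 839, 1209 and 490 CPM in injured 1, 2 and 3/4, in the same order of samples as Ifit1. Ifi44 had no UMI in any uninjured library and 23.5 ± 15.01 CPM after injury, at least 377-fold higher against a floor of 3 counts over the group. Iigp1, a GTPase of the interferon gamma response, had 2 uninjured UMIs and a ratio of 569 (95% counting interval 156 to 4714). Rsad2, an antiviral enzyme, and Isg15 rose by log2 8.20 and 7.11. The gene that fell was Cmpk2, named after its values were seen, from 15.1 ± 3.67 to 6.80 ± 3.61 CPM (log2 -1.17).

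**Figure D5:**
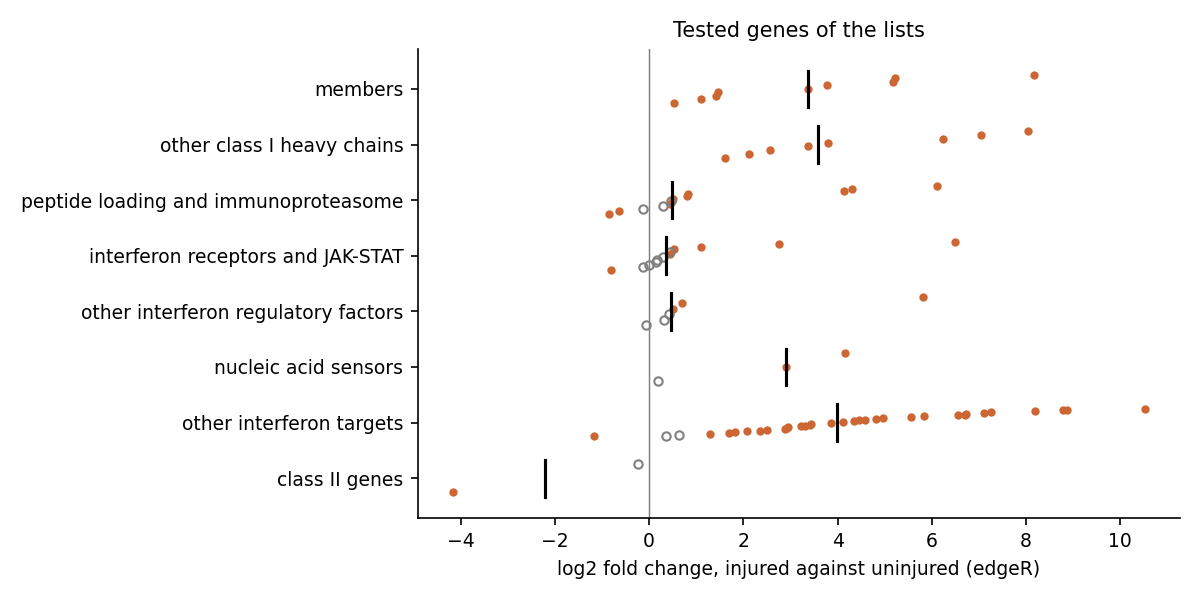
The horizontal axis is the log2 fold change, injured against uninjured, and the vertical axis the gene list; each point is a tested gene, filled where its edgeR adjusted p is under 0.05, and black bars are list medians. The medians of the members (3.37), other class I heavy chains (3.58) and other interferon targets (3.98) lie to the right. Those of receptors (0.36) and loading genes (0.49) are nearer 0, with single genes far from it.

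Few genes of class II or of cells that read class I could be tested. Of 9 class II genes 2 were tested: H2-Ab1 fell from 9.45 ± 6.69 to 0.507 ± 0.287 CPM (log2 -4.18) and H2-DMa (-0.25) did not pass. Of 8 receptors of class I none passed the filter on low counts, and their summed level was 4.03, 1.80 and 1.21 CPM in injured 1, 2 and 3/4, against 0 to 2.06 CPM in the uninjured libraries, with overlap.

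Markers of other cells were counted in the same samples. Of 18 microglia and macrophage genes 4 were tested, with 2 higher and 2 not past, where 44% of all tested genes passed in either direction. Their sum was 38.1, 63.8 and 113 CPM in the lowest, median and highest uninjured library and 47.1, 57.5 and 74.9 CPM in injured 1, 2 and 3/4, all within the uninjured range. Tmem119, C1qa, C1qc, Tyrobp, Trem2 and Itgam had 0 UMIs in the injured libraries, while the lysosomal Cd68 rose (log2 4.90) and so did Cx3cr1 (1.36), and P2ry12 (-1.08) did not pass. In cells with no UMI of the listed microglial and vascular markers, 2 of them aside (475 uninjured cells, and 236, 178, 365 and 355 cells of injured 1 to 4), B2m changed by log2 5.17, H2-K1 by 5.43, H2-D1 by 1.44 and Ifit1 by 8.61.

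Of 12 endothelial and pericyte genes 2 were tested and both fell, Egfl7 (log2 -2.13) and Tek (-0.81), and their sum went from 31.7 to 54.1 CPM in uninjured libraries down to 10.3, 16.6 and 11.8 CPM in injured 1, 2 and 3/4. Of 9 Muller glia and astrocyte genes 7 were tested, 3 rose and 2 fell, with Dkk3 (-2.50) and Apoe (-2.14) lower and Glul (0.91) higher, as were Rlbp1 (2.13) and Sox9 (4.87), named after their values were seen. Their sum, 118 to 185 CPM in uninjured libraries, was 126, 142 and 112 CPM in the injured samples. All 9 amacrine genes were tested, with 2 higher, 1 lower and 6 not past. Of these C1ql2 (3.44) and Slc6a9 (1.64) rose. Their sum was 198 to 347 CPM in the uninjured libraries and 413, 365 and 321 in the injured samples. Beside these counts, 44% of all tested genes passed in either direction.

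Of 10 photoreceptor genes 3 were tested, with Pde6b (log2 4.76) higher and Sag (0.53) and Pde6a (0.37) not past, and the sum was 5.05 to 19.9 CPM in uninjured libraries and 13.0, 35.9 and 13.4 CPM in the injured samples. Of 9 bipolar genes 2 were tested, with Gng13 (-4.43) lower and Prkca (0.48) not past, and the sum was 109 to 167 CPM and 149, 162 and 112 CPM. Over all tested genes 44% passed in either direction. In cells without 3 markers of another class (1092 uninjured cells kept, and 260, 204, 425 and 404 cells of injured 1 to 4) the log2 fold change was 5.21 for B2m, 5.28 for H2-K1 and 1.47 for H2-D1. The part of these cells in the members' levels was not tested beyond these values.

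The deposited cells carried the pan-RGC markers, of which 8 were tested, with 1 higher, 5 lower and 2 not past, where 44% of all tested genes passed in either direction. Rbpms and Tubb3 had a UMI in 100% of deposited cells, since the authors selected on them. Pou4f2 (log2 -2.64), Pou4f1 (-1.44), Rbpms (-1.21) and Sncg (-1.06) were lower after injury and Tubb3 (1.22) higher, and the summed level went from 5797 to 8239 CPM in uninjured libraries to 4283, 4871 and 5436 CPM. Of 10 subtype markers 9 were tested and 5 fell, among them Zic1 (-5.30), Neurod2 (-4.56), Cartpt (-3.76) and Eomes (-1.32).

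The members were also read in cells marked by at least 2 UMIs of a subtype gene, where a sample had 10 or more such cells, as CPM without TMM factors. Cells with Opn4, the melanopsin gene, stood high after injury, with B2m at 502 ± 267 CPM against 230 in all cells of the same 3 samples and H2-K1 at 603 ± 162 against 246, above all cells in 3 of 3 samples (16, 16, 29 and 22 cells in injured 1 to 4). Ifit1 was at 463 ± 452 CPM in them, against 118 in all cells. In injured 4 alone their B2m, at 201 CPM, was below that of all cells. These cells stood high before injury too, with H2-K1 at 37.1 ± 17.8 CPM against 7.31 and Tap2 at 9.74 ± 6.07 against 2.35, in 3 of 3 libraries (38 cells), while Stat2 was lower in them, at 8.47 ± 5.18 against 22.3. Before injury the cells with Eomes had H2-K1 at 33.8 ± 9.48 CPM against 6.87 in all cells, higher in 6 of 6 libraries, and Tap2 at 7.70 ± 2.74 against 2.59, also in 6 of 6, but Stat2 at 14.0 ± 3.37 against 22.1, higher in 0 of 6. After injury the cells with Eomes had B2m at 176 CPM against 239 in all cells, higher in 0 of 2 samples. Their injured H2-K1 was at 279 CPM against 256, higher in 1 of 2. Uninjured cells with Neurod2 had more B2m (15.05 ± 3.94 CPM against 6.37, in 4 of 4 libraries). Their H2-K1 went the other way, at 4.47 ± 2.40 CPM against 7.46, above all cells in 0 of 4 libraries. Those with Foxp2 had less H2-K1, at 2.24 ± 1.87 CPM against 6.87, below all cells in 6 of 6 libraries. Uninjured cells with Tbr1 had B2m at 3.00 ± 1.17 CPM against 6.37, below in 4 of 4 libraries.

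In the uninjured cells marked by Cartpt, Neurod2, Tfap2d or Zic1, H2-K1 was below the level of all cells in each library read. After injury, cells with Tfap2d had H2-K1 at 332 ± 46.8 and Stat2 at 48.9 ± 16.3 CPM, against 246 and 30.6 in all cells, higher in 3 of 3 samples. Injured cells with Cartpt had H2-K1 at 354 ± 125 CPM, also higher in 3 of 3 samples, with Stat2 higher in 2 of 3. Marked cells are part of all cells and differ in depth, so these levels are a description without a test. Alpha cells by Spp1 and Kcng4 together had no library with 10 cells.

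For H2-D1, the member with the highest mean CPM, the genes with the most similar levels over the 9 samples were S100a10 (Pearson r 0.9965 of log2 CPM plus 1), Rps4x (0.9961), Rps7 (0.9953), Rhoc (0.9947) and Rps15a (0.9933), of 5820 genes compared. Across 9 samples in 2 groups such values follow the group difference, and no test was made.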

How the data were processed

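The deposited matrices hold raw UMI counts, which the authors made, per the labels, with Cell Ranger 7.0.1 on mm39 (the article names another version) before selecting ganglion cells by Rbpms, Slc17a6, Sncg and Tubb3 and by mitochondrial share, genes and UMIs per cell. No doublet step beyond the authors' upper limit on UMIs was applied. UMIs were summed per library, with injured 3 and 4 averaged because they share barcodes. Genes passing filterByExpr were fitted over 6 uninjured and 3 injured samples with edgeR 4.0.16 (R 4.3.3; TMM, robust quasi-likelihood), and p-values were adjusted by Benjamini-Hochberg over all tested genes, with a threshold of 0.05. Standard errors are the log2 fold change divided by the root of F. The mCherry comparison used counts summed per library and reporter status (positive: at least 1 UMI), with the library as a term. Single levels and shares were compared by exact two-sided permutation tests in scipy 1.17.1 (Python 3.11.15, numpy 2.4.6, pandas 2.3.3). DESeq2 1.42.0, other scalings, filters, cell choices, thinning to 8000 UMIs, replicate structures and left-out samples were tried, 26 alternatives for injury and 8 for mCherry. Intervals and floors (3 counts) cover counting error only.

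Members and lists were chosen with earlier results of these data known. Named genes are the 9 members, every gene of a list with 6 or fewer tested genes, otherwise up to 4 genes with the largest absolute change among those past the threshold with a mean CPM of at least 5, the most abundant gene of each marker list, and the 5 genes most correlated with the most abundant member, among tested genes whose log2 CPM averaged 5 or more. Among the most abundant genes were Egfl7, Dkk3, Sag, Prkca, Sncg and Cartpt. Some genes that this rule names are not reported here. Protein sequences were not used here.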

Additional observations from a re-analysis of the deposited data

Results flagged for a closer look

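The summed level of the photoreceptor markers in uninjured 5 was 19.9 CPM, apart from the other 5 uninjured libraries, which lay between 5.05 and 8.93 CPM. The gap to the nearest library was 0.738 of the whole range of the group, above the critical value of 0.625 for 6 samples. It was the 1 such value in 34 groups of uninjured libraries examined, and by chance about 1 in 20 groups is marked in this way. The levels and shares of the 9 members in uninjured 5 were among the groups examined and were not marked, and the cause was not tested.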

How the results depend on the processing

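B2m, H2-K1, H2-D1 and Irf9 kept their direction and their side of the threshold under all 26 alternatives for injury, and Tap1, Irf1 and Ifit1 under the 23, 22 and 24 that tested them. B2m ranged from log2 4.98 to 5.31 and Ifit1 from 7.001 to 8.83. Tap2 and Stat2 lost the threshold under some, and the cause was not tested: in cells without microglial or vascular UMIs (1.35 and 0.41) and with libraries 1 to 3 of each condition, with the replicate block (1.05 and 0.41) and without it (1.02 and 0.44). Tap2 also lost it in injured cells without mCherry (1.07) and in injured 1 and 2 alone without mCherry (0.78, added after the data were seen), and Stat2 with thinned cells (0.0014), cells without Xist (0.66) and similar libraries summed (0.45). With a sample left out, Tap2 ran from 0.64 to 1.497 and Stat2 from 0.40 to 0.74; without an uninjured library they ran from 1.02 to 1.19 and from 0.51 to 0.60. Replicate numbers do not pair the samples: same-number correlations were 0.047, -0.039 and -0.055. Members past the threshold fell to 5 with at least 10 counts in every sample, where Tap1, Tap2, Irf1 and Ifit1 gave no value, and to 5 with thinned cells, where Tap1, Tap2 and Irf1 gave none. Tap1 and Ifit1 gave none in cells without Xist, and Irf1 none in cells without 3 markers of another class or without microglial or vascular UMIs. Genes lower numbered 2146 with similar libraries summed. Between mCherry groups, signs turned with thinned cells for B2m (0.21), H2-K1 (0.28) and Irf9 (0.10), without the library term for Tap2 (0.011) and without the filter for B2m (0.0175). Without the filter Ifit1 (-1.81) passed, members past numbered 1 and genes 5 higher and 13 lower. DESeq2 gave 1 gene lower. With a library left out, B2m ran from -0.39 to 0.52, H2-K1 from -0.36 to 0.33, H2-D1 from -0.42 to 0.65, Tap1 from -1.22 to 0.20, and genes past from 0 to 2 higher and 4 to 20 lower. Injured minus uninjured shares at the deposited depth were -15.6 percentage points for H2-D1 and -18.5 for Stat2, against 5.07 and -3.56 when thinned.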
